A study of Ranunculus trichophyllus with 6 samples.

Results

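Transcript levels of 6 regulators of leaf polarity and vascular tissue were compared between aquatic and terrestrial plants of *Ranunculus trichophyllus*, an amphibious buttercup with broad leaves on land and thin, cylindrical leaves under water. The regulators were chosen by name: REV (AT5G60690), ATHB15 (AT1G52150), AS1 (AT2G37630), KAN4 (AT5G42630), PXY (AT5G61480) and APL (AT1G79430). A transcript was counted as a member where the best protein match in the deposited annotation table was one of these *Arabidopsis thaliana* genes. This gave 10 of the 17559 transcripts with an *Arabidopsis* match, among 210686 assembled transcripts. Counts were summed over the transcripts with the same match, here called a homolog, so that the 6 regulators are 6 of 8613 homologs. The rule uses no measured value, but the regulators were chosen with earlier results of these libraries known, so the counts called among them are a description.

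In *Arabidopsis*, the upper (adaxial) side of a leaf is specified by class III homeodomain-leucine zipper (HD-ZIP III) factors, and the lower (abaxial) side by KANADI factors. Both families also act in the vascular bundle, where HD-ZIP III factors pattern the xylem. A flat blade forms where both sides meet, and leaves that lose one side become radial. The vascular cambium, the dividing layer between xylem and phloem, is kept active by a peptide from the phloem and its receptor.

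RNA was sequenced from the shoots of seedlings that were grown on land (terrestrial) or soaked at the age of 1 week (aquatic), in 3 libraries each. The labels give leaf at 14 days for replicate 1 of both conditions, and for replicates 2 and 3 an 11-day harvest of leaf plus shoot apical meristem. All plants shared light, temperature and humidity, cotyledons and hypocotyl were left out of the harvest, and no genotype or other treatment is given. The study's methods give 1 harvest for all libraries and the labels 2, so both harvests are shown apart. Tissue, age and, in aquatic plants, the time under water change together between the harvests and cannot be told apart. The sources do not say whether the 3 libraries of a condition came from separate cultures, so p-values measure only the spread between these samples.

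The total count was between 25345718 and 33978729 per library. In aquatic replicate 1, 36.2% of the counts lay in 3 transcripts, against 2.84 to 3.75% in the other libraries. Levels are therefore given as CPM (counts scaled to the TMM-adjusted sum of all homolog counts of a library), which those transcripts do not enter. In aquatic replicate 2, 43263 counts lay in 702 transcripts with a best match in the fungus *Magnaporthe*, against 1 to 23 in the other libraries. Leaving out either library did not change the direction of any regulator. Without aquatic replicate 2 the log2 fold changes were -1.07 for REV, -1.14 for ATHB15, -1.18 for AS1, 1.44 for KAN4, -1.31 for PXY and 0.17 for APL. Without aquatic replicate 1 they were -0.85, -0.80, -1.08, 1.60, -0.86 and 0.05 in the same order.

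The leaf label was checked with 4 photosynthesis homologs of 8 listed, whose summed level was 21547 to 44022 CPM in terrestrial and 18710 to 20687 CPM in aquatic plants. Of these, RBCS1A fell by 1.44 (adjusted p = 0.0335, or 0.0878 with the replicate number as a block) and RCA had -0.91 (adjusted p = 0.0769). Root markers summed to 11.3 to 34.4 CPM. Of 3 tested (8 listed) 0 were called, beside 16.4% of all homologs, and 0 had an unadjusted p under 0.05. SHR had -0.14 (adjusted p = 0.671) and SMB an adjusted p of 0.466. Conditions were compared by edgeR's quasi-likelihood test, with harvest as a term, in all 6 libraries. Fold changes are aquatic over terrestrial, and p-values were adjusted over all 8154 homologs that passed a minimum count of 10, among them all 6 regulators.

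In aquatic plants the homologs of REV, AS1 and PXY fell by 1.03 to 1.20 on the log2 scale, and the homolog of KAN4 rose by 1.51. ATHB15 had an estimate of -1.18 and narrowly missed the threshold. For APL no difference was detected. At an adjusted p under 0.05 this made 4 of 6 regulators called, beside 16.4% of all homologs. Lower calls were 3 of 6, beside 6.78% of all homologs, and higher calls 1 of 6, beside 9.6%. In the 11-day harvest alone 5 of 6 were called, beside 19.7% of 8210 homologs, with 4 of 6 lower, beside 8.93%, and 1 of 6 higher, beside 10.8%. The median log2 fold change in all libraries was -1.10 over the 6 regulators and -0.02 over all homologs tested. With aquatic replicate 2 left out, edgeR called 0 of 8219 homologs (2478 at an unadjusted p under 0.05), so the calls of homologs between conditions given here for all libraries, also of single listed genes, were lost without it. As the RNA came from mixed shoot tissue, fewer cells of a type and less RNA per cell cannot be told apart.

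**Figure D1:**
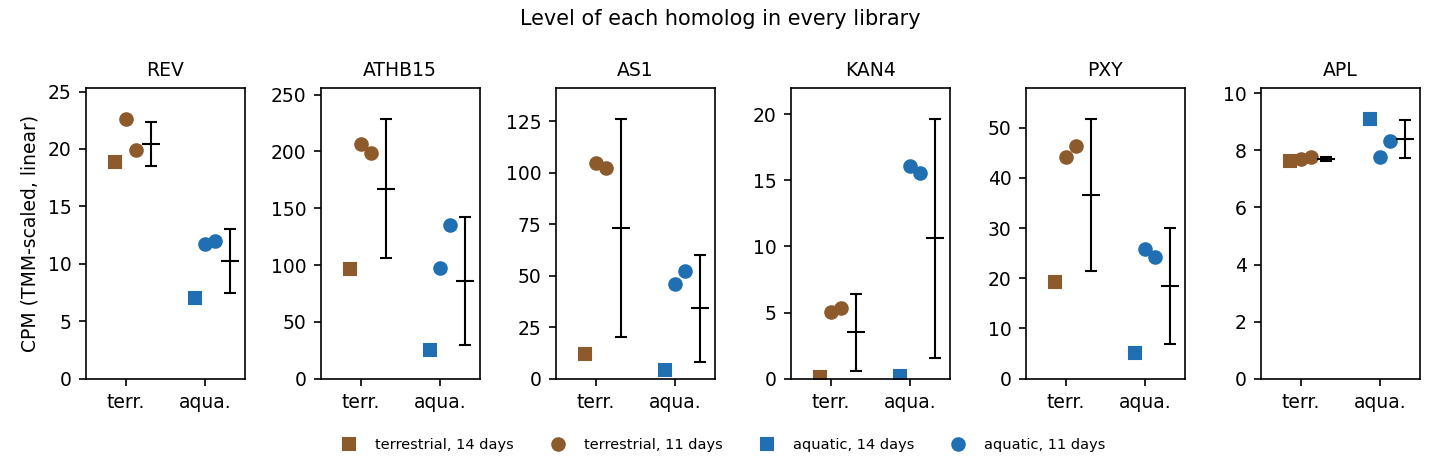
Level of each regulator in every library, in CPM on a linear axis from 0, for terrestrial (brown) and aquatic (blue) plants. Squares are the 14-day leaf libraries and circles the 11-day libraries with shoot apex, and bars show the mean and SD of 3 libraries. For REV all 3 aquatic points lie below all terrestrial points, and for KAN4 both 14-day points lie near 0.

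REV is an HD-ZIP III factor of adaxial fate that also acts in vascular bundles and in the meristems of leaf axils in *Arabidopsis*. Its level was 18.8, 22.6 and 19.9 CPM in the terrestrial replicates 1 to 3, and 7.03, 11.7 and 12.0 CPM in the aquatic replicates 1 to 3. Every aquatic library lay below every terrestrial library, which also held for 11.8% of all homologs and for none of the other regulators. The mean was 20.4 ± 1.94 CPM (SD, n = 3) in terrestrial plants and 10.2 ± 2.79 CPM (SD, n = 3) in aquatic plants. REV fell by 1.03 on the log2 scale with a standard error of 0.18 (adjusted p = 0.0251 from edgeR). Within the 11-day harvest alone it fell by 0.84 (adjusted p = 0.0317 from edgeR). At 14 days it had 78 aquatic and 304 terrestrial counts, a ratio of 0.373 after scaling (95% counting interval 0.287 to 0.480). This interval and those below cover counting error only. With the replicate number as a block in place of the harvest, REV did not pass (adjusted p = 0.0696), nor without terrestrial replicate 2 (0.105), terrestrial replicate 3 (0.0893), aquatic replicate 2 (0.0844) or aquatic replicate 3 (0.0629).

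ATHB15, an HD-ZIP III factor of the developing vasculature and the shoot meristem in *Arabidopsis*, had the most counts of the 6 regulators. It had 96.9, 207 and 198 CPM in the terrestrial replicates 1 to 3, and 24.8, 97.7 and 135 CPM in the aquatic replicates 1 to 3. The conditions overlapped over all libraries, because the 14-day terrestrial library lay below both 11-day aquatic libraries. Within each harvest every aquatic library lay below its terrestrial counterparts. This is a separation of 2 against 2 and of 1 against 1 libraries. Libraries of 1 against 1 always separate, and 2 against 2 can easily do so without a difference between conditions. The separation is therefore only a description. Its share over all homologs was not counted, here or for the regulators, other genes and sums below. The log2 fold change was -1.18 (standard error 0.29, 95% interval -1.93 to -0.42), with an adjusted p of 0.0548 from edgeR. In the 11-day harvest alone ATHB15 fell by 0.79 (adjusted p = 0.0482), and it also passed without aquatic replicate 1 (adjusted p = 0.0495), with DESeq2 (adjusted p = 0.00166) and with limma on log2(FPKM + 1) (adjusted p = 0.0201). It did not pass with the replicate block (adjusted p = 0.111), nor without terrestrial replicate 1 (0.0525), terrestrial replicate 2 (0.133), terrestrial replicate 3 (0.143), aquatic replicate 2 (0.151) or aquatic replicate 3 (0.0584). Its 14-day libraries had 275 aquatic and 1563 terrestrial counts, a ratio of 0.256 (95% counting interval 0.224 to 0.291).

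AS1 encodes a MYB factor that keeps KNOX meristem genes silent in leaf primordia and, with a partner, takes part in adaxial fate in *Arabidopsis*. In the terrestrial replicates 1 to 3 it had 11.9, 105 and 102 CPM, and in the aquatic replicates 1 to 3 it had 4.23, 45.9 and 52.3 CPM. The 14-day libraries were far below the 11-day libraries in both conditions, and within each harvest the aquatic libraries were the lower ones. AS1 fell by 1.20 on the log2 scale with a standard error of 0.13 (adjusted p = 0.0128 from edgeR), and by 1.07 within the 11-day harvest (adjusted p = 0.0138). At 14 days the ratio was 0.356 (95% counting interval 0.253 to 0.492), from 47 aquatic and 192 terrestrial counts. Of the 6 regulators, only AS1 also passed with the replicate block (adjusted p = 0.0423), which called 5.46% of all homologs. It did not pass without terrestrial replicate 2 (0.0608), terrestrial replicate 3 (0.0708) or aquatic replicate 2 (0.0621).

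KAN4, named ATS in the deposited annotation, belongs to the KANADI factors of abaxial fate and is known in *Arabidopsis* for the shaping of the ovule integuments. It had 0.124, 5.04 and 5.34 CPM in the terrestrial replicates 1 to 3, and 0.180, 16.1 and 15.5 CPM in the aquatic replicates 1 to 3. Only the 11-day libraries carried this homolog in number, and there both aquatic libraries lay above both terrestrial ones. Each 14-day library had 2 counts, below the 3 counts that a count of 0 allows, so no fold change between conditions was drawn at that harvest. KAN4 rose by 1.51 with a standard error of 0.22 (adjusted p = 0.0185 from edgeR), or 2.85-fold. In the 11-day harvest alone the increase was 1.61 (adjusted p = 0.0125), or 3.05-fold. It missed the threshold with the replicate block (adjusted p = 0.0573) and without terrestrial replicate 2 (0.103), terrestrial replicate 3 (0.114), aquatic replicate 2 (0.0801) or aquatic replicate 3 (0.0586). It was the only one of the 6 regulators called higher in aquatic plants.

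PXY is the receptor kinase of the cambium that binds the phloem peptide and maintains division and the order of xylem and phloem. Its level was 19.2, 44.2 and 46.4 CPM in the terrestrial replicates 1 to 3, and 5.04, 25.9 and 24.3 CPM in the aquatic replicates 1 to 3. Over all libraries the conditions overlapped through the low 14-day terrestrial library, and within each harvest they did not. PXY fell by 1.19 with a standard error of 0.25 (adjusted p = 0.0391 from edgeR), and by 0.85 in the 11-day harvest alone (adjusted p = 0.0183). The 14-day ratio was 0.263 (95% counting interval 0.194 to 0.350), from 56 aquatic and 310 terrestrial counts. PXY missed the threshold with the replicate block (adjusted p = 0.0957) and without terrestrial replicate 2 (0.102), terrestrial replicate 3 (0.131), aquatic replicate 2 (0.0933) or aquatic replicate 3 (0.0928).

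APL, a MYB-like factor required for phloem identity in *Arabidopsis*, varied least between the libraries. It had 7.62, 7.69 and 7.78 CPM in the terrestrial replicates 1 to 3, and 9.10, 7.77 and 8.32 CPM in the aquatic replicates 1 to 3. The conditions overlapped in both the whole set and the 11-day harvest, and the terrestrial libraries of both harvests had an SD of 0.0783 CPM (n = 3). The log2 fold change was 0.12 (standard error 0.15, adjusted p = 0.576 from edgeR), with a 95% interval of -0.26 to 0.50. At 14 days the ratio was 1.19 (95% counting interval 0.908 to 1.57), from 101 aquatic and 123 terrestrial counts. A decrease of the size seen for PXY lay outside both intervals.

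**Figure D2:**
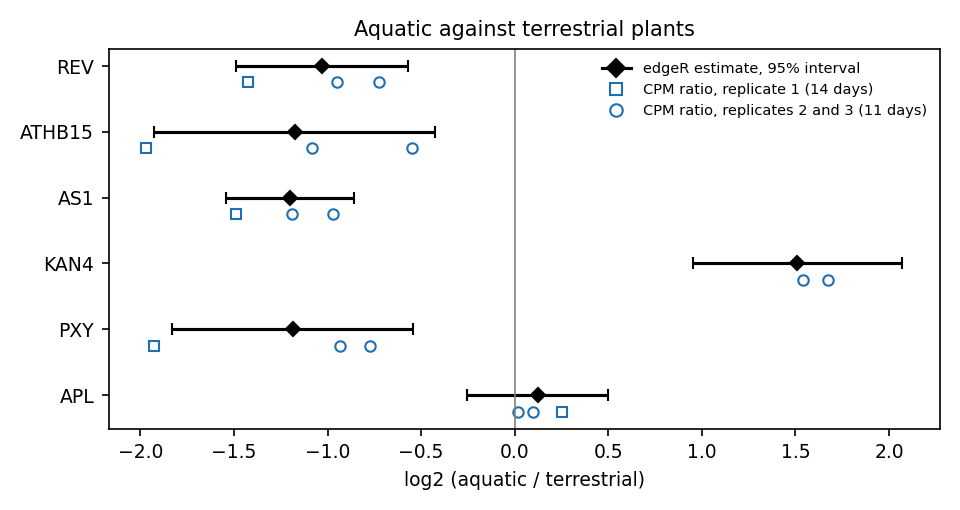
Aquatic against terrestrial plants on a log2 axis, with edgeR's estimate and its 95% interval (black) and the CPM ratio of the libraries with the same replicate number (blue squares for 14 days, circles for 11 days). For REV, ATHB15, AS1 and PXY all 3 ratios are below 0 and the 14-day ratio is the lowest. The 14-day ratio of KAN4 is left out because each library had 2 counts.

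The log2 fold changes of REV, ATHB15, AS1 and PXY were further below 0 at 14 days than at 11 days, but the difference between harvests did not pass the test for any regulator. The interaction term, 14-day minus 11-day log2 fold change, was -1.17 for ATHB15 (adjusted p = 0.151 from edgeR) and -1.07 for PXY (adjusted p = 0.0951). REV had -0.58 (adjusted p = 0.371) and AS1 -0.41 (adjusted p = 0.421). For APL it was 0.20 (adjusted p = 0.785), and for KAN4 no value is given, as its 14-day libraries had 2 counts each. Thus 0 of 6 regulators were called, beside 4.61% of all homologs. At an unadjusted p under 0.05 there were 2 of 6 by edgeR, and DESeq2 called 0, also with 2 at an unadjusted p under 0.05. With 1 library per condition at 14 days, the spread in this test comes from the 11-day libraries.

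AS1, KAN4, PXY and ATHB15 were lower in the 14-day leaf than in the 11-day leaf with apex, and REV and APL were not called. These 4 of 6 stand beside 33.8% of all homologs called in either direction and 18.4% called lower. AS1 was 3.31 lower on the log2 scale at 14 days (adjusted p = 0.00206 from edgeR). In terrestrial plants the 11-day level of AS1 was 8.70 times the 14-day level (95% counting interval 7.52 to 10.1), and in aquatic plants 11.6 times (8.71 to 15.9). KAN4 passed as well (adjusted p = 0.00206), with 157 terrestrial counts at 11 days against 2 at 14 days, a ratio of 41.9 after scaling (95% counting interval 11.4 to 349). In aquatic plants it had 486 counts against 2, a ratio of 87.7 (24.1 to 726). PXY was 1.72 lower at 14 days on the log2 scale (adjusted p = 0.0138), and ATHB15 1.60 lower (adjusted p = 0.0220). REV had -0.44 (adjusted p = 0.135) and APL 0.08 (adjusted p = 0.724). Without terrestrial replicate 3, 2 regulators were called lower at 14 days, and 3 without terrestrial replicate 2 or without aquatic replicate 2.

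**Figure D3:**
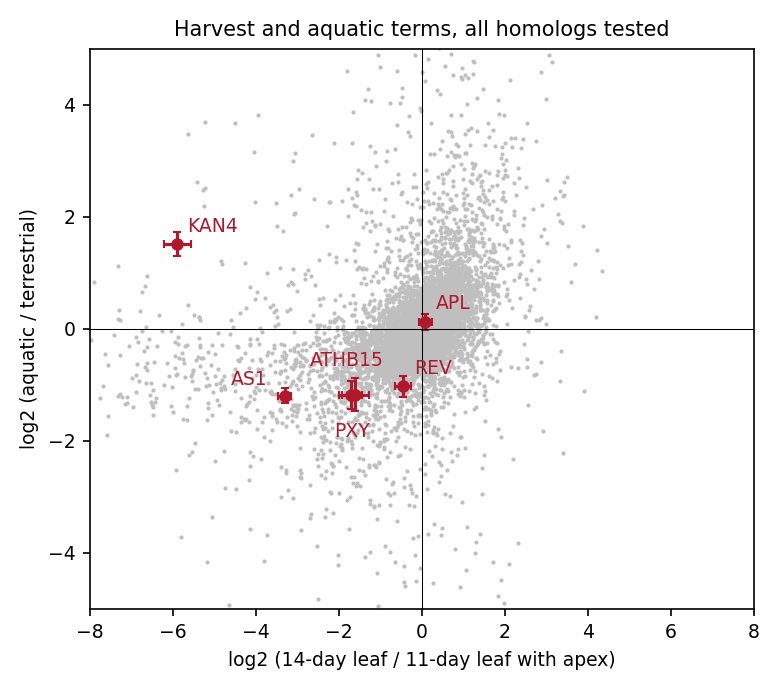
The harvest term (x axis, log2 of 14-day leaf over 11-day leaf with apex) against the aquatic term (y axis, log2 of aquatic over terrestrial) for the tested homologs in grey and the 6 regulators in red with standard errors. Of 8154 homologs, 87 lie outside the axes. AS1, ATHB15 and PXY lie in the lower left, KAN4 at the upper left, REV below 0 with a small harvest term, and APL near the origin.

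Most shoot apex and cell division markers were lower at 14 days and in aquatic plants. Of 10 listed, 6 were tested. At 14 days 5 of 6 were called lower, beside 18.4% of all homologs, and in aquatic plants 4 of 6 were called lower, beside 6.78%. Their summed level was 33.5, 377 and 516 CPM in the terrestrial replicates 1 to 3, and 20.7, 243 and 229 CPM in the aquatic replicates 1 to 3. STM, the KNOX factor that marks the shoot meristem, had 0 counts in both 14-day libraries, which allows up to 0.177 CPM in the terrestrial and 0.264 CPM in the aquatic library before TMM scaling. At 11 days STM had 9.66 and 11.1 CPM in terrestrial and 9.35 and 18.1 CPM in aquatic plants, a log2 fold change of 0.40 (adjusted p = 0.492). CDKB1;1, a kinase of dividing cells, had -0.27 (adjusted p = 0.461). CLV1, the receptor kinase that limits the meristem, fell by 0.96 (adjusted p = 0.0156 from edgeR), and AUR1, a mitotic kinase, by 0.98 (adjusted p = 0.0308). With the replicate block, 1 of these 4 passed, CLV1 (adjusted p = 0.0464), while AUR1 had an adjusted p of 0.0686. The summed level was lower in aquatic plants within each harvest, as the levels of REV, ATHB15, AS1 and PXY were, while that of KAN4 was higher at 11 days. The part of these cells in the levels of the regulators was not tested.

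Between genes, levels were compared by the deposited FPKM, which is per length of transcript. In terrestrial plants ATHB15 was highest with 29.6 ± 11.9 FPKM (SD, n = 3), followed by AS1 with 22.2 ± 16.3, PXY with 6.24 ± 2.81, REV with 4.11 ± 0.521, APL with 3.67 ± 0.241 and KAN4 with 1.37 ± 1.16. In this order only APL and KAN4 did not overlap as neighbours. In aquatic plants the order was ATHB15 with 13.5 ± 9.98 FPKM (SD, n = 3), AS1 with 9.28 ± 7.46, KAN4 with 3.78 ± 3.24, APL with 3.21 ± 0.648, PXY with 2.78 ± 2.0 and REV with 1.75 ± 0.823. All neighbours overlapped there. In the 11-day libraries alone, KAN4 went from a mean of 2.04 FPKM in terrestrial plants to 5.65 FPKM in aquatic plants, and REV from 4.39 to 2.23 FPKM. KAN4 was thus lower than the annotated REV transcript in terrestrial plants and higher than it in aquatic plants at that harvest. That transcript took only 26.3 to 30.7% of the counts of the assembled REV gene. The places of REV in both orders, and this crossing with KAN4, therefore hold for that transcript and not for the whole gene. FPKM is scaled to all fragments of a library, so the 3 transcripts with 36.2% of the counts of aquatic replicate 1 lower the other values of that library.

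Single transcripts had the same direction as the sums. All 10 member transcripts passed the filter, and 7 of 10 were called, 6 lower and 1 higher, beside 10.5% of 58039 transcripts tested (4.04% lower and 6.42% higher). Both transcripts of AS1, c54158_g1_i1 and c54158_g1_i2, were called: the first fell by 1.26 (adjusted p = 0.00991 from edgeR), and the second fell by 1.28 (adjusted p = 0.0127). Of the ATHB15 transcripts, c61405_g3_i3 fell by 1.39 (adjusted p = 0.0424), c61405_g3_i2 fell by 1.30 (adjusted p = 0.0494) and c61405_g3_i1 had -1.03 (adjusted p = 0.0696). The transcript c61405_g3_i3 held 37.4 to 41.5% of the ATHB15 counts in terrestrial and 33.5 to 37.6% in aquatic plants, and c61405_g3_i1 held 27.4 to 30.6% and 31.3 to 37.8%. For KAN4, c50887_g1_i3 rose by 1.46 (adjusted p = 0.0453), and c50887_g1_i2 had 1.52 (adjusted p = 0.0991). The single transcript of PXY fell by 1.27 (adjusted p = 0.0343), that of REV fell by 1.11 (adjusted p = 0.0229), and that of APL had 0.04 (adjusted p = 0.906). Transcripts of 1 assembled gene share sequence, so the split of reads between them is an estimate and they are not independent. Without terrestrial replicate 2, terrestrial replicate 3 or aquatic replicate 2, 0 of 10 passed and 8 of 10 had an unadjusted p under 0.05. With the replicate block 2 of the 10 passed, both of AS1 (adjusted p = 0.0301 and 0.0368).

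**Figure D4:**
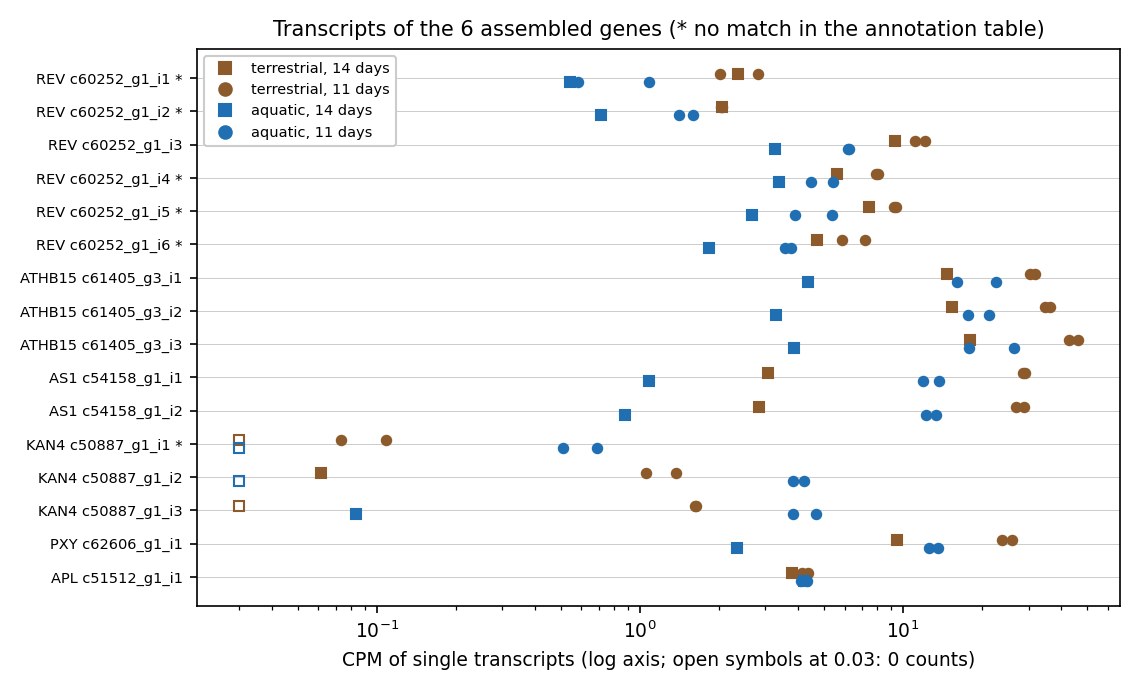
CPM of each transcript of the 6 assembled genes in every library on a log axis, with squares for 14 days and circles for 11 days. Here CPM is scaled to the TMM-adjusted sum of the tested transcripts, so values are lower than the homolog CPM of the same counts. The 304 counts of REV in terrestrial replicate 1 are 9.34 CPM here and 18.8 CPM as a homolog. Open symbols mark 0 counts and are drawn at 0.03 CPM, and a star marks a transcript with no match in the annotation table. The aquatic symbols of the REV, PXY and AS1 transcripts lie to the left of the terrestrial symbols of the same harvest.

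The assembled gene of REV holds 5 more transcripts that the annotation table does not match to a protein, of 941 to 3711 bases, and the annotated transcript took 26.3 to 30.7% of the counts of that gene. Of these 5, 3 fell: c60252_g1_i1 by 1.70 (adjusted p = 0.0306), c60252_g1_i5 by 1.16 (adjusted p = 0.0262) and c60252_g1_i6 by 1.00 (adjusted p = 0.0370). With the replicate block none of these 3 passed (adjusted p = 0.0698, 0.0547 and 0.0797). The others, c60252_g1_i4 with -0.70 (adjusted p = 0.0570) and c60252_g1_i2 with -0.77 (adjusted p = 0.151), did not pass. Summed over all its transcripts the REV gene fell by 0.95 (adjusted p = 0.0207). The protein matches covered at least 96.4% of the *Arabidopsis* protein in each regulator, with 83% identical residues for ATHB15, 73% for REV, 67% for AS1, 63% for PXY, 49% for APL and 41 to 42% for KAN4. The median over all *Arabidopsis* matches was 58%, so the names of APL and KAN4 rest on weaker matches than those of the others. Other class III HD-ZIP genes were on a list of 6 adaxial factors, of which 0 were among the 8613 homologs, so no level of theirs is given here. The other listed KANADI genes were not among the homologs either.

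Over the 6 libraries the profiles of ATHB15, PXY and AS1 were close to each other. As a description over 6 libraries that share harvest and condition, Pearson's r of log2 CPM was 0.99 between ATHB15 and PXY, 0.95 between PXY and AS1, and 0.93 between ATHB15 and AS1. KAN4 had 0.82 with AS1 and 0.19 with REV, and APL had -0.88 with REV. Among all homologs, the profiles most like REV were AT1G11860 (r = 0.997), AT2G02750 (0.994) and MSL10 (0.993). Those nearest to ATHB15 were AT2G18876 (0.997), AT3G56310 (0.997) and AT3G62070 (0.996), and those nearest to PXY were PSRP2 (0.9996), AUG4 (0.999) and AT2G01210 (0.998). For AS1 they were PXL2 (0.998), MAKR4 (0.998) and RS41 (0.997), of which PXL2 encodes a receptor kinase closely related to PXY. For KAN4 they were GAMMA (0.999), ATP3 (0.998) and AT4G26210 (0.997), and for APL AT1G55915 (0.990), BS14A (0.985) and LPPepsilon2 (0.983). Such likeness was common, as 656 homologs had r above 0.95 with AS1, 542 with PXY, 415 with ATHB15, 177 with REV, 148 with KAN4 and 30 with APL.

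Few genes around the polarity regulators were tested, and 0 were called, beside 16.4% of all homologs. So few genes cannot show a difference from that share. Of 9 other KANADI, YABBY and ARF genes of abaxial fate, 2 were tested and 0 were called by edgeR, with 0 also at an unadjusted p under 0.05. ETT, an auxin response factor of abaxial fate, had 5.70, 11.8 and 16.1 CPM in the terrestrial replicates 1 to 3 and 0.0901, 8.25 and 5.61 CPM in the aquatic replicates 1 to 3, a log2 fold change of -1.79 (standard error 0.78, adjusted p = 0.162). ARF4, its close relative, had 27.7, 32.2 and 27.0 CPM in the terrestrial replicates 1 to 3 and 2.25, 14.9 and 29.9 CPM in the aquatic replicates 1 to 3. Its conditions overlapped at 11 days, and its log2 fold change was -1.30 (standard error 0.76, adjusted p = 0.263). Both estimates were opposite in direction to KAN4, whose rise was seen at 11 days only, and both genes were lowest in aquatic replicate 1. In *Arabidopsis* a small RNA pathway with RDR6 and SGS3 restrains these ARF genes, and here 0 of 2 tested (4 listed) were called, with 0 at an unadjusted p under 0.05. RDR6 had 0.04 (adjusted p = 0.797) and SGS3 -0.19 (adjusted p = 0.229). SE, the 1 gene tested of 9 on a list of small RNA control, which takes part in the making of the microRNAs that act on HD-ZIP III transcripts, had 0.01 (standard error 0.10, adjusted p = 0.938).

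The tested KNOX genes, STM, BP and KNAT2, did not pass the test between conditions. Of 10 listed partners, KNOX and leaf margin genes, 3 were tested. Of these, 0 were called by edgeR, beside 16.4% of all homologs, and 1 had an unadjusted p under 0.05. With 3 genes, 0 calls cannot be told from that share. BP had 0, 15.9 and 11.3 CPM in the terrestrial replicates 1 to 3, and 0, 23.0 and 28.9 CPM in the aquatic replicates 1 to 3. Both 11-day aquatic libraries lay above both terrestrial ones, with a log2 fold change of 0.92 (standard error 0.27, adjusted p = 0.0883). KNAT2 had 0.32 (adjusted p = 0.273). Like AS1, all 3 KNOX homologs were called lower at 14 days, beside 18.4% of all homologs. At that harvest they summed to 0.0620 CPM in the terrestrial and 0.0901 CPM in the aquatic library.

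**Figure D5:**
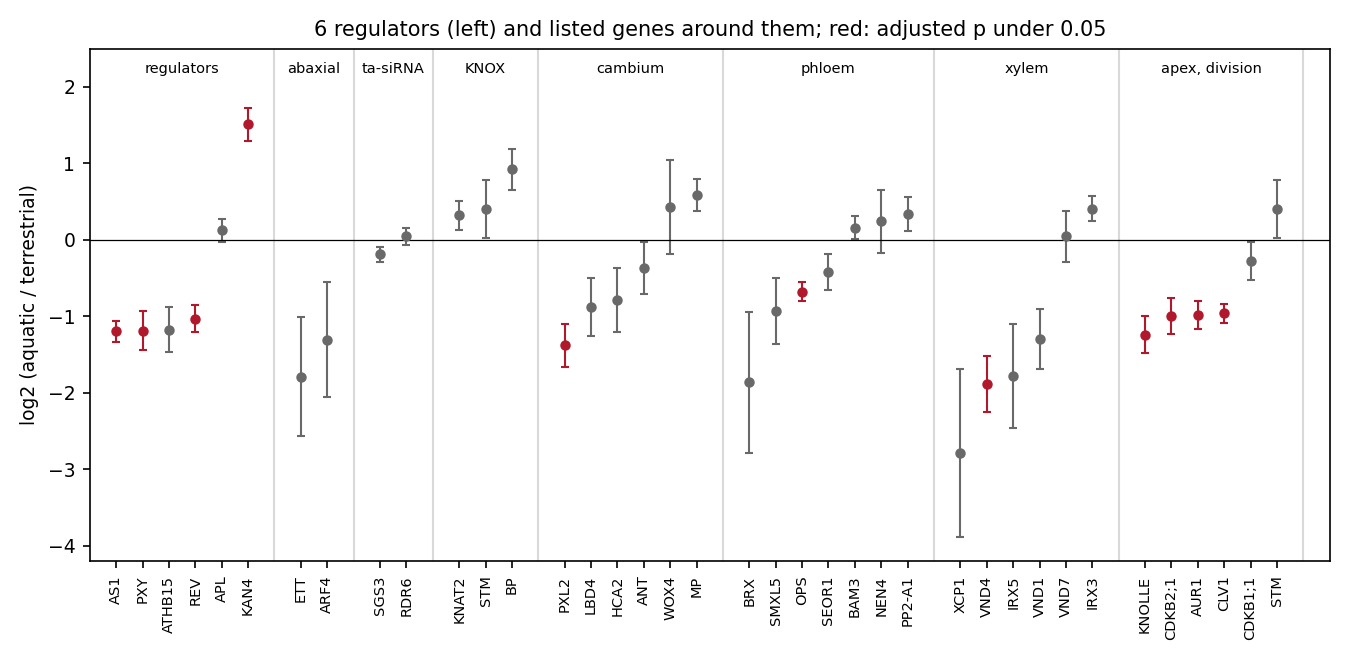
Log2 fold change (aquatic over terrestrial) with its standard error for the 6 regulators at the left and the tested homologs of the lists around them, with STM in 2 lists and red for an adjusted p under 0.05 from edgeR. Photosynthesis and root markers and SE are not drawn. Red points outside the regulators are PXL2, OPS, VND4 and 4 markers of the apex and dividing cells, all below 0.

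Around PXY, 1 of 6 tested genes of its pathway and of the cambium (16 listed) was called, beside 16.4% of all homologs. PXL2, the receptor kinase related to PXY, fell by 1.38 with a standard error of 0.28 (adjusted p = 0.0350 from edgeR). Its mean was 4.36 ± 3.47 CPM in terrestrial and 1.72 ± 1.49 CPM in aquatic plants (SD, n = 3). MP, an auxin response factor of early vascular tissue, had 0.59 (adjusted p = 0.109). At 14 days 4 of these 6 genes were called lower and 1 higher. Of all homologs, 33.8% were called between harvests in either direction and 18.4% were called lower.

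Of the tested markers, 1 of 6 for vessels and 1 of 7 for phloem were called, beside 16.4% of all homologs. Of 11 vessel genes 6 were tested, and VND4, a NAC factor that switches on vessel differentiation, fell by 1.89 with a standard error of 0.37 (adjusted p = 0.0328 from edgeR). VND1, a factor of the same family, had -1.30 (adjusted p = 0.0797). The other vessel genes, named after their values were seen, did not pass. VND7, of the same family, had 0.05 (adjusted p = 0.928), with a standard error of 0.33 and only 8 to 14 counts per library. IRX3, a cellulose synthase of secondary walls, had 0.41 (adjusted p = 0.140). IRX5 had -1.78 (adjusted p = 0.126), and XCP1, a protease of vessel cells, had -2.78 (adjusted p = 0.136). The median log2 fold change of the 6 was -1.54. The summed level of the 6 vessel genes was 49.95, 88.5 and 123 CPM in the terrestrial replicates 1 to 3 and 11.2, 34.5 and 44.4 CPM in the aquatic replicates 1 to 3, so that the conditions did not overlap. XCP1 had 0 counts in aquatic replicate 1 and made up most of that sum elsewhere. Of 14 phloem genes 7 were tested, and OPS, a protein of early phloem cells, fell by 0.68 with a standard error of 0.13 (adjusted p = 0.0309). SMXL5, another gene of early phloem, had -0.93 (adjusted p = 0.180). The phloem sum was 65.2, 117 and 119 CPM in the terrestrial replicates 1 to 3 and 68.5, 110 and 88.2 CPM in the aquatic replicates 1 to 3. Over all libraries it overlapped between conditions, as APL did. At 11 days both aquatic sums lay below both terrestrial sums, whereas APL overlapped at that harvest too. OPS and VND4 did not pass with the replicate block (adjusted p = 0.0796 and 0.0556), nor did PXL2 (adjusted p = 0.0846). The part of these cell types in the levels of REV, ATHB15 and PXY was not tested.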

How the data were processed

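Reads were assembled by the authors without a genome, in Trinity. The labels and the methods also name TopHat and Cufflinks, and give no version. The deposited files hold, for each of 6 libraries and 210686 transcripts, expected counts (estimated fragments per transcript, whole numbers throughout), TPM and FPKM, made by the authors before the quantile normalization of the study's methods. The authors' deposited annotation table gives the best protein match with its alignment score and percent of identical residues, and 6 value columns per library in it were not used. Deposited tables on GO terms, which hold the authors' summed FPKM and log2 ratios, were not used either.

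Counts were summed per *Arabidopsis* match and tested with edgeR 4.0.16 (quasi-likelihood, TMM, terms for harvest and condition, minimum count of 10, Benjamini-Hochberg over all features) in R 4.3.3. Standard errors were derived from the F statistic and are approximate. Alternatives used DESeq2 1.42.0 and limma 3.58.1 on quantile-normalized log2(FPKM + 1). Tables and plots used Python 3.11.15, pandas 2.3.3, scipy 1.17.1 and matplotlib 3.10.9. The fits were also run on simulated counts without a harvest effect, which checks the code and not how stable the calls are. Counting intervals are exact Clopper-Pearson intervals at 95%, and with no molecular identifiers they cover counting error only.

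The 6 members and the gene lists were chosen with earlier results of these data known. Named genes are all members and their transcripts, the 3 homologs most like each member, and the 2 genes of each list with the smallest p. Lists cover polarity, small RNA, KNOX and cambium genes and markers of shoot apex, phloem, vessel, photosynthesis and root. One list, of other adaxial factors, had 0 genes tested.

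The labels number the libraries 1 to 3 in both conditions. Deviations from the condition means correlated between libraries of the same number, with 0.663, 0.547 and 0.470 for numbers 1 to 3. Crossed libraries of the 11-day harvest had 0.598 and 0.480, so the correlations follow the harvest, and the labels do not say that a number marks a shared batch. The fit with the number as a block is given beside each call it changes.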

Additional observations from a re-analysis of the deposited data

Results flagged for a closer look

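The assembled gene of KAN4 holds 1 transcript of 549 bases, c50887_g1_i1, that the annotation table does not match to a protein and that enters no comparison above. It had 0, 2 and 3 counts in terrestrial replicates 1 to 3 and 0, 19 and 16 counts in aquatic replicates 1 to 3. Its mean was 0.0604 CPM in terrestrial and 0.400 CPM in aquatic plants, above the level in the control plants. It was below the minimum count and was not tested. Summed with the annotated transcripts, a sum added after seeing the data, the KAN4 gene rose by 1.56 on the log2 scale (adjusted p = 0.0182 from edgeR).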

How the results depend on the processing

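No alternative fit changed the direction of a regulator's fold change. Of the 6 regulators, 4 were called and 3 to 5 with DESeq2, RLE scaling, other count filters, library sizes from all transcripts, limma, the highest-count transcript, a minimum identity of 50% (which leaves out APL and KAN4) or all transcripts of the assembled genes. Without the harvest term 0 were called (1 at an unadjusted p under 0.05), and with the replicate block 1. Leaving out libraries gave 0 to 5 calls: 0 without terrestrial replicate 2, terrestrial replicate 3 or aquatic replicate 2 (5 each at an unadjusted p under 0.05), 0 without replicate 2 or replicate 3 of both conditions (3 and 4), and 1 without aquatic replicate 3. Over all homologs, edgeR then called 0 of 8219 without aquatic replicate 2 (2478 at an unadjusted p under 0.05). Of the member transcripts, 7 were called, 1 without a count filter, 0 without the harvest term (1 at an unadjusted p under 0.05), 2 with the block and 0 to 8 with libraries left out. Harvest calls were 4, and 2 to 4 with libraries left out.

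Over all homologs edgeR called 783 higher and 553 lower, DESeq2 1371 and 1313, the replicate block 327 and 118, no harvest term 25 and 9, and limma 720 and 795, or 47.5% higher in place of 58.6%. Leaving out a library or a replicate number gave 0 to 1628 calls. TPM in place of FPKM moved 1 of 12 mean levels, and FPKM in place of CPM moved 6 of 18 ratios, by more than the spread. With FPKM the log2 ratios of APL turned below 0, from 0.26, 0.02 and 0.10 in CPM to -0.47, -0.08 and -0.09 for replicates 1 to 3. The 14-day harvest, with 1 library per condition and 2 counts of KAN4 in each, cannot show a difference for that gene.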
